A study of Mus musculus with 6 samples.

Results

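BMP pathway and Id target genes were followed through RNA sequencing of 3T3-L1, a pre-adipocyte line of mouse embryo fibroblasts, after knockdown of METTL3 or FTO. METTL3 is the catalytic subunit of the enzyme that writes N6-methyladenosine into mRNA, and FTO removes methyl groups from RNA. The 9 genes are Id1, Id2, Id3, Id4, Smad6, Smad7, Bambi, Bmp4 and Grem1, and they were picked by symbol from 37315 gene entries per library. The set was drawn up because Id1 levels set the METTL3 libraries numbered 2 apart from those numbered 1. That difference is therefore given as a description without a test, and it is set beside both knockdowns.

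The METTL3 knockdown and METTL3 control groups had 2 libraries each, numbered 1 and 2 and read in single-read mode. FTO knockdown and FTO control were represented by a single library apiece, sequenced paired-end. All cells were transiently transfected, the column headers of the knockdown libraries carry the prefix "si", and the labels do not state what control cells received or when cells were harvested. Nothing in the labels shows that numbered libraries came from separate cultures, so p-values measure only the spread between these libraries, which may be technical.

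Total counts were 41841866 to 44580722 in the METTL3 knockdown libraries, 41773967 to 43254253 in the METTL3 control libraries, 28348179 in the FTO knockdown library and 29321128 in the FTO control library. The 11 fibroblast and pre-adipocyte markers all reached 1 CPM (read counts scaled by library size, with TMM factors within each experiment) in at least 1 library. Of 8 endothelial markers, only Vwf reached 1 CPM in any library, and Tie1 had no read in any. Of 8 macrophage markers, 5 reached 1 CPM in a library, and the list summed to 23.3 to 37.3 CPM. Of 8 osteoblast and cartilage markers, 2 did, and that list summed to 141 to 248 CPM. Mettl3 stood at 6.55 and 7.68 CPM in METTL3 knockdown libraries 2 and 1, against 28.9 and 25.1 CPM in METTL3 control libraries 2 and 1. Fto stood at 49.5 CPM in the FTO knockdown library, against 154 CPM in the FTO control library.

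Bone morphogenetic proteins (BMPs) bind pairs of membrane kinases, which phosphorylate SMAD1, SMAD5 and SMAD9. These join SMAD4, enter the nucleus and raise transcription of the Id genes, whose products hold E proteins and other helix-loop-helix factors off DNA. SMAD6, SMAD7 and the pseudoreceptor BAMBI damp the signal from within the cell, and gremlin, the product of Grem1, binds BMPs outside it. In pre-adipocyte biology, BMP4 is known for committing mesenchymal precursors to the fat lineage.

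Id1, the member the set was built on, stood at 144 and 63.9 CPM in METTL3 knockdown libraries 2 and 1, against 149.6 and 66.6 CPM in METTL3 control libraries 2 and 1. Library 2 was 2.25 times library 1 in the knockdown pair and 2.25 times in the control pair (log2 ratio 1.16 in each). The order followed the library number and not the knockdown: both libraries numbered 2 lay above both numbered 1. Id1 (ENSMUSG00000042745) lies on the plus strand of GRCm38 chr2:152736251-152737410.

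Id2, which in textbooks is tied to lineage choice in blood and fat, showed the widest number gap of the set. It stood at 17.4 and 6.54 CPM in METTL3 knockdown libraries 2 and 1, against 25.1 and 9.26 CPM in METTL3 control libraries 2 and 1. Library 2 was 2.66 times library 1 in the knockdown pair and 2.71 times in the control pair. Id2 (ENSMUSG00000020644) lies on the minus strand of chr12:25093799-25097140.

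Id3, often co-expressed with Id1, stood at 94.6 and 49.7 CPM in METTL3 knockdown libraries 2 and 1, against 94.5 and 61.5 CPM in METTL3 control libraries 2 and 1. The gap was 1.90-fold in the knockdown pair and 1.53-fold in the control pair, and again both libraries numbered 2 lay above both numbered 1. Id3 (ENSMUSG00000007872) lies on the plus strand of chr4:136143497-136145755.

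Id4, whose protein can oppose other Id proteins in some settings, stood at 21.8 and 9.74 CPM in METTL3 knockdown libraries 2 and 1, against 31.4 and 13.8 CPM in METTL3 control libraries 2 and 1. The gap was 2.24-fold in the knockdown pair and 2.28-fold in the control pair. Id4 (ENSMUSG00000021379) lies on the plus strand of chr13:48261228-48266026 and is overlapped on the opposite strand by 2 annotated non-coding genes. Whether reads were counted by strand is not stated, so reads from either strand cannot be told apart there.

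**Figure D1:**
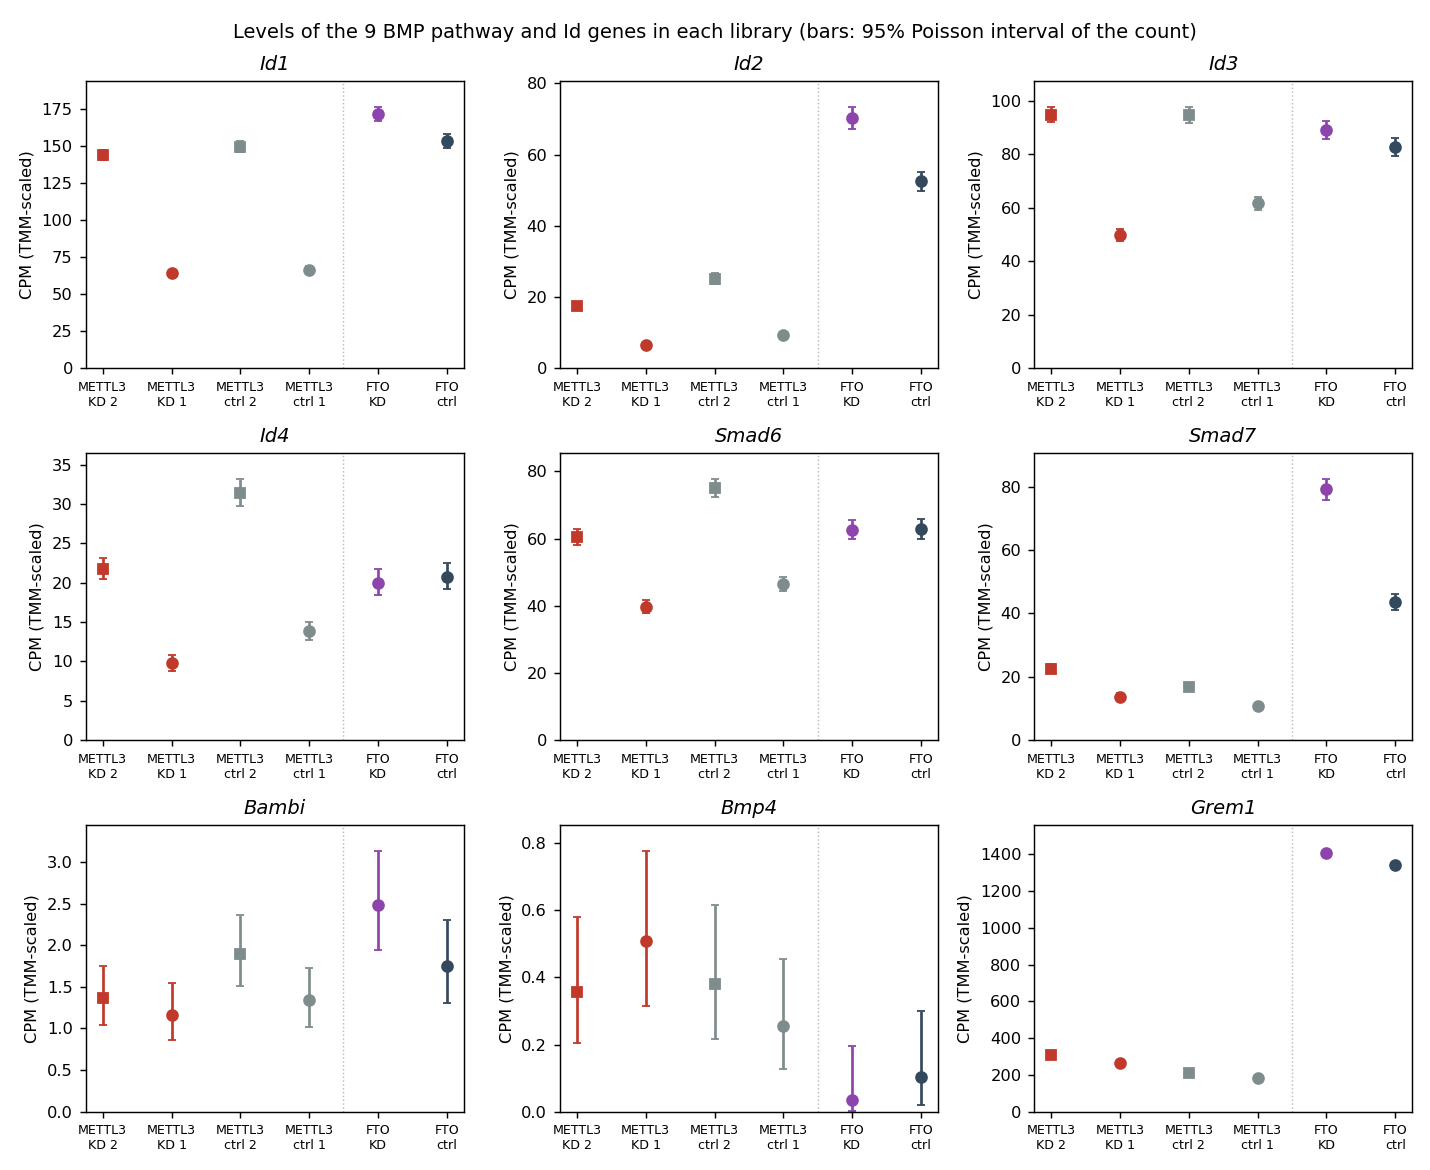
Level (CPM, TMM-scaled within each experiment) of each of the 9 genes in the 6 libraries, 1 panel a gene, with squares for METTL3 libraries numbered 2, circles for the others and bars for 95% Poisson intervals of the count. All 4 Id genes, Smad6 and Smad7 are higher in the libraries numbered 2 within each METTL3 group, Smad7 is higher in the FTO knockdown than in the FTO control, and Grem1 is highest in the FTO libraries.

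Compared per length, on the RPKM the authors deposited, Id1 made up most of the Id family in every library. The 4 Id genes summed to 188 and 85.1 RPKM in METTL3 knockdown libraries 2 and 1, and to 205.5 and 98.9 RPKM in METTL3 control libraries 2 and 1. The sum was 205.7 RPKM in the FTO knockdown library and 177 RPKM in the FTO control library. RPKM of the FTO libraries rests on read totals that are larger relative to their counts, which lowers it beside METTL3 libraries. By CPM, scaled within each experiment, Id1 stood at 171 and 153 in FTO knockdown and control, against at most 149.6 in METTL3 libraries. By RPKM it stood at 115 and 101 in the same order, against at most 120. Id1 took 60.9% and 58.7% of it in METTL3 knockdown libraries 2 and 1, against 58.5% and 53.5% in METTL3 control libraries 2 and 1. In the FTO libraries the share of Id1 was 55.8% after knockdown and 57.0% in the control. The share of Id2 differed most between the experiments, at 20.9% in the FTO knockdown library and 17.8% in the FTO control library, against 5.49% to 6.72% in METTL3 knockdown and 6.79% to 8.96% in METTL3 control libraries. Id3 held 18.8% to 32.0% and Id4 4.55% to 8.60% over the 6 libraries.

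**Figure D2:**
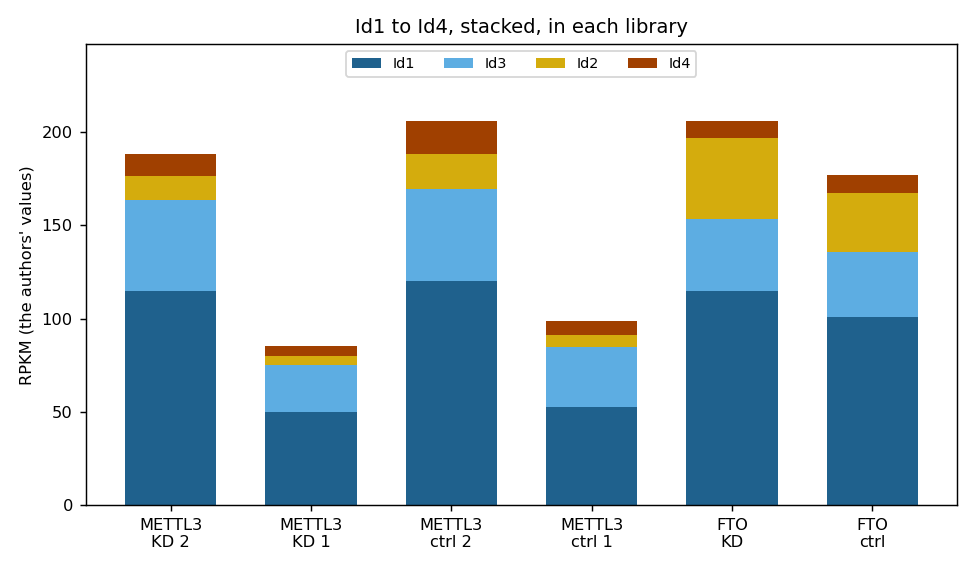
RPKM (the authors' values) of Id1, Id3, Id2 and Id4 stacked for each library, with METTL3 libraries on the left and FTO libraries on the right. The stacks of the METTL3 libraries numbered 1 reach 85.1 and 98.9 RPKM, below the 4 others at 177 to 205.7 RPKM, and the Id2 layer is thickest in the FTO libraries. FTO stacks rest on larger read totals relative to counts, so their heights are lowered beside those of METTL3 libraries.

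Smad6 and Smad7 followed the same library order, with gaps below those of Id1, Id2 and Id4. Smad6, which blocks receptor and SMAD complexes of the BMP branch, stood at 60.4 and 39.7 CPM in METTL3 knockdown libraries 2 and 1, against 75.1 and 46.4 CPM in METTL3 control libraries 2 and 1. Library 2 was 1.52 times library 1 in the knockdown pair and 1.62 times in the control pair. Smad7, which acts on both the BMP and the TGF-beta branch, stood at 22.4 and 13.6 CPM in METTL3 knockdown libraries 2 and 1, against 16.8 and 10.7 CPM in METTL3 control libraries 2 and 1. Its gaps were 1.65-fold in the knockdown pair and 1.56-fold in the control pair, and unlike Smad6 it was higher in the knockdown than in the control library of either number. Smad6 (ENSMUSG00000036867) lies on the minus strand of chr9:63953076-64022059, and the identifier of Smad7 is ENSMUSG00000025880.

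Of the genes with at least 50 reads in a library, Grem1 and Bambi showed the smallest number gaps. Bambi, a receptor without a kinase domain, stood at 1.36 and 1.16 CPM in METTL3 knockdown libraries 2 and 1, against 1.90 and 1.34 CPM in METTL3 control libraries 2 and 1, from 48 to 80 reads a library. Library 2 was 1.17 times library 1 in the knockdown pair and 1.42 times in the control pair. Both Bambi (ENSMUSG00000024232) and Smad7 lie on chromosome 18, and the pseudogene Bambi-ps1 had 1 to 2 reads a library. Grem1, the secreted antagonist (ENSMUSG00000074934, minus strand of chr2:113746164-113758646), stood at 308 and 266 CPM in METTL3 knockdown libraries 2 and 1, against 210.0 and 185 CPM in METTL3 control libraries 2 and 1. Its number gap was 1.16-fold in the knockdown pair and 1.14-fold in the control pair. Bmp4, the ligand (ENSMUSG00000021835), had 16 and 21 reads in METTL3 knockdown libraries 2 and 1, against 16 and 11 reads in METTL3 control libraries 2 and 1. These counts were under the 50 reads asked of a gene for the number comparison.

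At 50 reads or more in a library, 8 of the 9 genes could be compared by number. All 8 were higher in library 2 in both pairs, and 6 passed 1.5-fold in both: the 4 Id genes, Smad6 and Smad7. Of 11872 genes compared the same way, 39.8% were higher in library 2 in both pairs, 1.49% passed 1.5-fold upward in both pairs and 1.59% downward. The median log2 ratio was 0.70 over the 8 genes and 0.01 over all genes. On the log2(CPM + 1) scale of the limit (0.58), the lowest passing ratios were those of Smad6 in the knockdown pair (0.59), Smad7 in the control pair (0.60) and Id3 in the control pair (0.61). The nearest gene not to pass was Bambi, at 0.13 in the knockdown pair and 0.31 in the control pair on the same scale. Id1 had been picked for this very gap, so none of these counts is evidence for it.

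Promoter sequences from RefSeq (GRCm38.p6) were present for 6 of the 9 genes, and 3 are shown: Id4 and Smad6, which passed 1.5-fold by library number, and Grem1, which did not. The windows of Id2 and Id3 lie inside the annotated genes, with 181 and 270 of their 270 bases in exons, and are not shown. Their positions before the RefSeq start are thus within the gene as annotated by GENCODE. Each window runs from 250 bases before the start to 20 bases after it, 5′ to 3′ on the strand of the gene. The windows are chr13:48260866-48261135 (plus strand) for Id4, chr9:64022040-64022309 (minus strand) for Smad6 and chr2:113758629-113758898 (minus strand) for Grem1. Capitals mark the letters GTCTAGAC (a palindromic SMAD element), GGCGCC (a GC-rich SMAD element) or GTCTG, each searched on both strands, so that GTCTG also appears as CAGAC.
Id4: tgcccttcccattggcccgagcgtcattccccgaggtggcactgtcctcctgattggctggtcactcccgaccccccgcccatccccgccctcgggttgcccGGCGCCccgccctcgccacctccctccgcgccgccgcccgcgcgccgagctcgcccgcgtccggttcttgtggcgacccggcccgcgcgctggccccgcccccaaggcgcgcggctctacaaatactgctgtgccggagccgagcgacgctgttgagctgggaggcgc
Smad6: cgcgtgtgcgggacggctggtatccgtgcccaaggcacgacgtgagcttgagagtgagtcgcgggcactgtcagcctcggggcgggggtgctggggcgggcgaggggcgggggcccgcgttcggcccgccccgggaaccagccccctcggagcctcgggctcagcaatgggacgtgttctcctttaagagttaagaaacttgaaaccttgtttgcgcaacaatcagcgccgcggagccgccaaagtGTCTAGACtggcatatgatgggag
Grem1: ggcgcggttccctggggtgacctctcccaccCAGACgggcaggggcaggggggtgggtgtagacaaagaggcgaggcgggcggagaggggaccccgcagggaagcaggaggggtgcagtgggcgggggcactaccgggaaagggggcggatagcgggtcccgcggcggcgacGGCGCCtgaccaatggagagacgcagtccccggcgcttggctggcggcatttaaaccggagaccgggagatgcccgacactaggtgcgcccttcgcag
The palindrome GTCTAGAC, the element through which SMAD3 and SMAD4 were first shown to bind DNA, spans the start of Smad6, from base -4 to base 4. It was present in 0.183% of 32851 promoter windows of the same length. GGCGCC stood at -148 to -143 in Id4, at -231 to -226 in Id2 and at -78 to -73 in Grem1, and 10.4% of windows held it. GTCTG or its complement stood at -219 to -215 in Grem1 and at -167 to -163 and -68 to -64 in Id3, and 45.4% of windows held it. None of the motifs was found in the Bmp4 window. These letter matches describe the windows only, and no binding was measured.

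Other genes of the pathway were set beside the 9. BMP receptors and co-receptors did not share the number gap: 0 of 10 passed 1.5-fold in both pairs, with a median log2 ratio of -0.02. Bmpr1a, a type I receptor, stood at 33.8 and 32.3 CPM in METTL3 knockdown libraries 2 and 1, against 34.1 and 30.1 CPM in METTL3 control libraries 2 and 1. Of the SMADs and their regulators, 0 of 11 passed, with a median of 0.05. The widest gaps there were those of Smad9, a receptor-activated SMAD (1.37-fold in the knockdown pair and 1.53-fold in the control pair, mean log2 ratio 0.44), and Skil, an inhibitor of SMADs (1.30-fold and 1.43-fold in the same order, mean 0.40). Smad1, another receptor-activated SMAD of the BMP branch, stood at 37.9 and 36.4 CPM in METTL3 knockdown libraries 2 and 1, against 36.9 and 39.2 CPM in METTL3 control libraries 2 and 1. Among 8 other BMP antagonists compared, Nbl1 was lower in library 2, at 0.429 times library 1 in the knockdown pair and 0.535 times in the control pair, and none was past 1.5-fold upward. Of the 10 ligands on the list, 0 reached 1 CPM in any library.

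Of 12 other genes known to respond to BMP, 6 had enough reads, 5 of these were higher in library 2 in both pairs, and 1 passed 1.5-fold in both. That gene was Atoh8, a helix-loop-helix factor induced by BMP in endothelium and liver, with 67.7 and 36.0 CPM in METTL3 knockdown libraries 2 and 1, against 128 and 67.5 CPM in METTL3 control libraries 2 and 1. Library 2 was 1.88 times library 1 in the knockdown pair and 1.90 times in the control pair. The median over the 6 genes was 0.40. Hey1, a target shared with Notch, stood at 5.48 and 2.54 CPM in METTL3 knockdown libraries 2 and 1, against 3.11 and 2.29 CPM in METTL3 control libraries 2 and 1.

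The partners of the Id proteins behaved differently from the Id genes. Of 6 E proteins and related factors with enough reads, Twist2 passed 1.5-fold in both pairs (1.56-fold in the knockdown pair and 1.63-fold in the control pair) and the median log2 ratio was -0.12. Twist1 ran the other way, with a mean log2 ratio of -0.42. Tcf3, which encodes the E proteins E12 and E47, stood at 394 and 340.0 CPM in METTL3 knockdown libraries 2 and 1, against 285 and 298 CPM in METTL3 control libraries 2 and 1.

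Genes of other programmes moved with the same library number. Of 20 S-phase and mitotic genes, 20 were higher in library 2 in both pairs and 13 passed 1.5-fold in both, with a median log2 ratio of 0.71. Their summed level was 2549 and 1646 CPM in METTL3 knockdown libraries 2 and 1, against 2161 and 1393 CPM in METTL3 control libraries 2 and 1. Of 5 myofibroblast and smooth muscle markers compared, 3 passed 1.5-fold in both pairs, and the summed level of all 7 was 1287 and 661 CPM in METTL3 knockdown libraries 2 and 1, against 1813 and 692 CPM in METTL3 control libraries 2 and 1. Of 8 adipocyte markers, 2 reached 1 CPM in any library: Lpl, a lipase gene, was lower in library 2 (0.563 times in the knockdown pair and 0.597 times in the control pair), while Fabp4, a fatty acid carrier gene, had a mean log2 ratio of 0.06. The summed level of the 8 was 240.0 and 411 CPM in METTL3 knockdown libraries 2 and 1, against 319.8 and 521 CPM in METTL3 control libraries 2 and 1. Of 16 genes of the TGF-beta branch, 3 passed 1.5-fold in both pairs, Acta2 and Ccn2 among them, and the median log2 ratio was 0.13. Acta2 is on both lists and is also counted among the 3 myofibroblast and smooth muscle markers that passed. Ccn2, a matrix-associated growth factor, stood at 5.55 and 2.30 CPM in METTL3 knockdown libraries 2 and 1, against 6.05 and 2.03 CPM in METTL3 control libraries 2 and 1. The part of these genes in the number gap of the Id genes was not tested. Fewer cells of a type and less RNA per cell cannot be told apart in such bulk libraries.

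Over all 6 libraries and 12298 genes, the profiles nearest to that of Id1, by Euclidean distance of centred log2(CPM + 1), included those of Ptger4 (distance 0.403), Cdc6 (0.474), Cdk1 (0.476) and Ska3 (0.486). Ptger4 encodes a prostaglandin E2 receptor, Cdc6 a replication licensing factor, Cdk1 the mitotic cyclin-dependent kinase and Ska3 a kinetochore protein. Among the set itself, Id3 ranked 68, Id4 94 and Smad6 179 in that order, while Id2 ranked 6624 and Smad7 5432. The profile includes the step between the METTL3 and the FTO libraries, which differ in reading mode.

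The METTL3 knockdown itself was then compared with its control over both libraries of each group, using edgeR's quasi-likelihood test with adjustment over all 13697 genes tested. All 9 genes were tested and 0 were called, beside 0.0146% of all genes (2 of 13697). DESeq2 likewise called 0 of the 9, beside 1.57% of all genes. Mettl3 itself, at 0.264 times its control level, was not called by edgeR (log2 fold change -1.92, SE 0.16, edgeR adjusted p = 0.161). DESeq2 did call Mettl3 (DESeq2 adjusted p = 4.6e-18). The 0 calls of edgeR among the 9 genes therefore do not show that they were unchanged. With the library number as a block, edgeR called 5 of the 9, beside 27.1% of all genes. Only Grem1 had an unadjusted p under 0.05, which 11.5% of all genes had. With 2 libraries against 2, the smallest two-sided exact permutation p for a single value is 0.333.

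Grem1 averaged 287 ± 29.6 CPM in METTL3 knockdown and 197 ± 17.9 CPM in METTL3 control libraries (SD, n = 2 each), 1.45 times as high. Its log2 fold change was 0.54 (SE 0.13, edgeR adjusted p = 0.287). It was the only 1 of the 9 genes whose groups did not overlap, beside 43% of all genes that did not (21% higher and 22% lower in knockdown). At the same library number the log2 ratio of knockdown over control was 0.52 for number 1 and 0.55 for number 2.

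For the Id genes the spread within a group exceeded the difference between groups. Id1 averaged 104 ± 56.6 CPM in METTL3 knockdown and 108 ± 58.7 CPM in METTL3 control libraries (log2 fold change -0.06, SE 0.51, edgeR adjusted p = 0.976). Id2 averaged 12.0 ± 7.68 CPM in METTL3 knockdown and 17.2 ± 11.2 CPM in METTL3 control libraries (log2 fold change -0.52, SE 0.62, edgeR adjusted p = 0.800). Id4 averaged 15.8 ± 8.52 CPM in METTL3 knockdown and 22.6 ± 12.5 CPM in METTL3 control libraries (log2 fold change -0.52, SE 0.52, edgeR adjusted p = 0.757). Id3 had a log2 fold change of -0.11 (SE 0.35, edgeR adjusted p = 0.937). In this fit without a block, the SE of each was about as large as its log2 fold change or larger. With the library number as a block, Id2 and Id4 kept a log2 fold change of -0.52 each. Their SEs were then 0.10 and 0.095 (edgeR adjusted p = 4.0e-05 and 6.0e-06), and Id1 and Id3 were not called. That block called 27.1% of all genes, and the labels do not say what a number marks.

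Set side by side at 1 library number, the knockdown over control log2 ratio of Id2 was -0.44 for number 1 and -0.50 for number 2, and that of Id4 was -0.46 and -0.51 in the same order. For Id1 it was -0.06 and -0.05. Over the set, 7 of 9 genes had the same direction at both numbers, as did 74.3% of all genes, so the share was near the background.

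Among the regulators, Smad6 averaged 50.1 ± 14.7 CPM in METTL3 knockdown and 60.8 ± 20.3 CPM in METTL3 control libraries (log2 fold change -0.28, SE 0.30, edgeR adjusted p = 0.776). Smad7 averaged 18.0 ± 6.24 CPM in METTL3 knockdown and 13.8 ± 4.26 CPM in METTL3 control libraries (log2 fold change 0.39, SE 0.32, edgeR adjusted p = 0.702). Bambi had a log2 fold change of -0.35 (SE 0.28, edgeR adjusted p = 0.692) and Bmp4 one of 0.45 (SE 0.41, edgeR adjusted p = 0.734). The median over the 9 genes was -0.11, beside 0.00 over all genes.

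**Figure D3:**
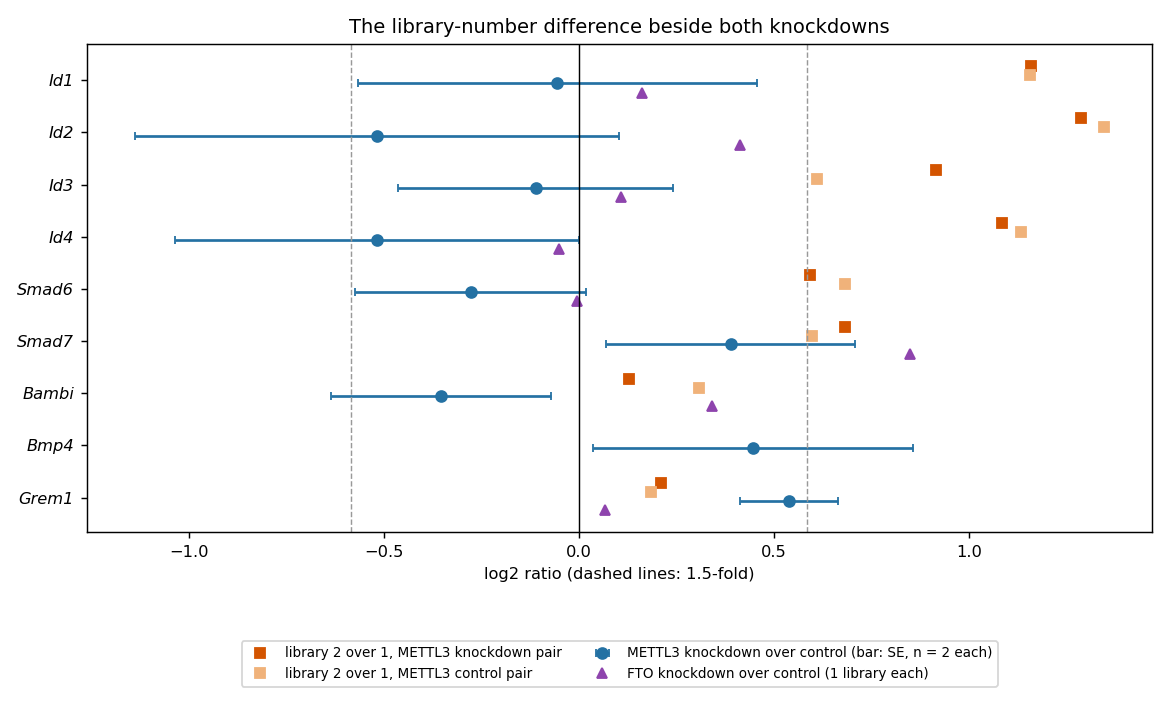
Log2 ratio of each gene (x axis) for METTL3 library 2 over 1 in the knockdown pair and the control pair (squares), METTL3 knockdown over control (circles with SE, n = 2 each) and FTO knockdown over control (triangles, 1 library each). The squares of the Id genes lie at 0.61 to 1.35 while their METTL3 circles lie at -0.52 to -0.06, Smad7 has the rightmost triangle at 0.85, and Bmp4 has a METTL3 circle alone because its reads were too few for the rest.

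Across the 6 other pathway lists, 0 of 44 tested genes were called in METTL3 knockdown, 1 had an unadjusted p under 0.05 upward and 1 downward, beside 6.35% and 5.1% of all genes in these directions. The upward gene was Tcf3 (log2 fold change 0.33, SE 0.11, edgeR adjusted p = 0.393). The downward gene was Fst, which encodes follistatin, a secreted antagonist of activins and some BMPs. Fst stood at 111 and 91.0 CPM in METTL3 knockdown libraries 2 and 1, against 142 and 122 CPM in METTL3 control libraries 2 and 1 (log2 fold change -0.39, SE 0.14, edgeR adjusted p = 0.401). Atoh8 had the lowest ratio of the BMP-responsive list (log2 fold change -0.92, SE 0.41, edgeR adjusted p = 0.480), and its groups overlapped. Acvrl1, a type I receptor for BMP9, had a log2 fold change of -0.48 (SE 0.21, edgeR adjusted p = 0.476). Bmper, which encodes an extracellular BMP binder, had one of -0.43 (SE 0.19, edgeR adjusted p = 0.472). The same lists held upward ratios too. Widest upward were Hey1 (log2 fold change 0.58, SE 0.41, edgeR adjusted p = 0.654) and the antagonist gene Chrd (0.41, SE 0.35, edgeR adjusted p = 0.717). Eng, of the receptor list, had 0.25 (SE 0.14, edgeR adjusted p = 0.564). The median log2 fold change over the 44 genes was -0.05.

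In the neighbouring TGF-beta branch, 0 of 16 genes were called. The widest ratio was that of Tgfbr1, the type I receptor for TGF-beta, at 16.4 and 18.4 CPM in METTL3 knockdown libraries 2 and 1, against 9.63 and 10.1 CPM in METTL3 control libraries 2 and 1 (log2 fold change 0.81, SE 0.14, edgeR adjusted p = 0.228). Skil, which TGF-beta induces, stood at 9.06 and 6.98 CPM in METTL3 knockdown libraries 2 and 1, against 9.56 and 6.70 CPM in METTL3 control libraries 2 and 1.

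The FTO knockdown was compared with its control in 1 library each, so ratios have no replicate check, and their 95% Poisson intervals hold counting error alone. Had mates of 1 pair each been counted, those intervals would understate that error. Smad7 stood at 79.1 CPM (75.8 to 82.4) in the FTO knockdown library, against 43.5 CPM (41.1 to 45.9) in the FTO control library. The ratio of these libraries was 1.82 (1.70 to 1.95). Smad7 was the only 1 of 8 genes with enough reads to pass 1.5-fold, beside 2.58% of 11432 genes upward and 3.96% downward (6.54% in either direction).

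Id2 stood at 70.2 CPM (67.1 to 73.3) in the FTO knockdown library, against 52.4 CPM (49.8 to 55.1) in the FTO control library, a ratio of 1.34 (1.25 to 1.43). Id1 stood at 171 CPM (167 to 176) after FTO knockdown and 153 CPM (149 to 158) in the control, a ratio of 1.12 (1.07 to 1.16). Id3 was 1.08 times (1.02 to 1.14) and Id4 0.962 times (0.857 to 1.08) its control level. The 4 Id genes thus spanned 0.962-fold to 1.34-fold between the FTO libraries, below the 1.53-fold to 2.71-fold between numbered METTL3 libraries.

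Smad6 stood at 62.6 CPM in the FTO knockdown library and 62.8 CPM in the FTO control library, a ratio of 0.997 (0.933 to 1.06). Smad6 and Smad7, which shared the number gap in the METTL3 libraries, therefore parted in the FTO libraries. Grem1 stood at 1405 CPM in the FTO knockdown library and 1342 CPM in the FTO control library, a ratio of 1.05 (1.03 to 1.06). Bambi had 71 reads in the FTO knockdown library and 51 in the FTO control library, a ratio of 1.42 (0.975 to 2.07) whose interval includes no difference. Bmp4 had 1 read in the FTO knockdown library and 3 in the FTO control library, at or under the floor of 3 reads, so no ratio is given. The median log2 ratio was 0.14 over the 8 genes and 0.00 over all genes.

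In the lists, Skil stood at 98.5 CPM in the FTO knockdown library and 54.7 CPM in the FTO control library, 1.80 times (1.69 to 1.92) as high and close in size to Smad7. Of the 16 TGF-beta genes, 2 passed 1.5-fold upward and 2 downward, and the median log2 ratio was -0.10. Col1a1, a collagen gene that TGF-beta is known to raise, was among those downward, at 0.549 times its control level. It is also on the list of fibroblast and pre-adipocyte markers.

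Of the 39 other BMP pathway genes with enough reads, 1 passed 1.5-fold upward (Skil) and 2 downward. The downward pair were Rgma, a BMP co-receptor, at 0.628 times, and Tob1, which restrains SMAD activity, at 0.623 times its control level. Among BMP antagonists, Fst had a log2 ratio of -0.54. The 6 BMP-responsive genes had a median of 0.05, with Dlx2, a homeobox gene, widest at 0.47. The E protein gene Tcf4 had a log2 ratio of -0.47, and Tcf3 stood at 126 CPM in both libraries.

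The 20 S-phase and mitotic genes had a median log2 ratio of 0.29 between the FTO libraries, with summed levels of 3432 CPM after FTO knockdown and 2833 CPM in the control, and 0 passed 1.5-fold. In METTL3 knockdown over control their median log2 fold change was 0.24, with 0 of 20 called. Of 11 fibroblast and pre-adipocyte markers, 5 passed 1.5-fold downward and 0 upward between the FTO libraries, with a median log2 ratio of -0.55. Their summed level was 12463 CPM in the FTO knockdown library and 16559.6 CPM in the FTO control library. Pdgfra, a growth factor receptor gene of fibroblasts and adipocyte precursors, had the widest ratio, at 252 CPM in the FTO knockdown library and 504 CPM in the FTO control library. Vwf was the single endothelial marker above 1 CPM, at 30.2 CPM in the FTO knockdown library and 12.1 CPM in the FTO control library. The part of these genes in the values of Smad7 and Id2 was not tested.

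**Figure D4:**
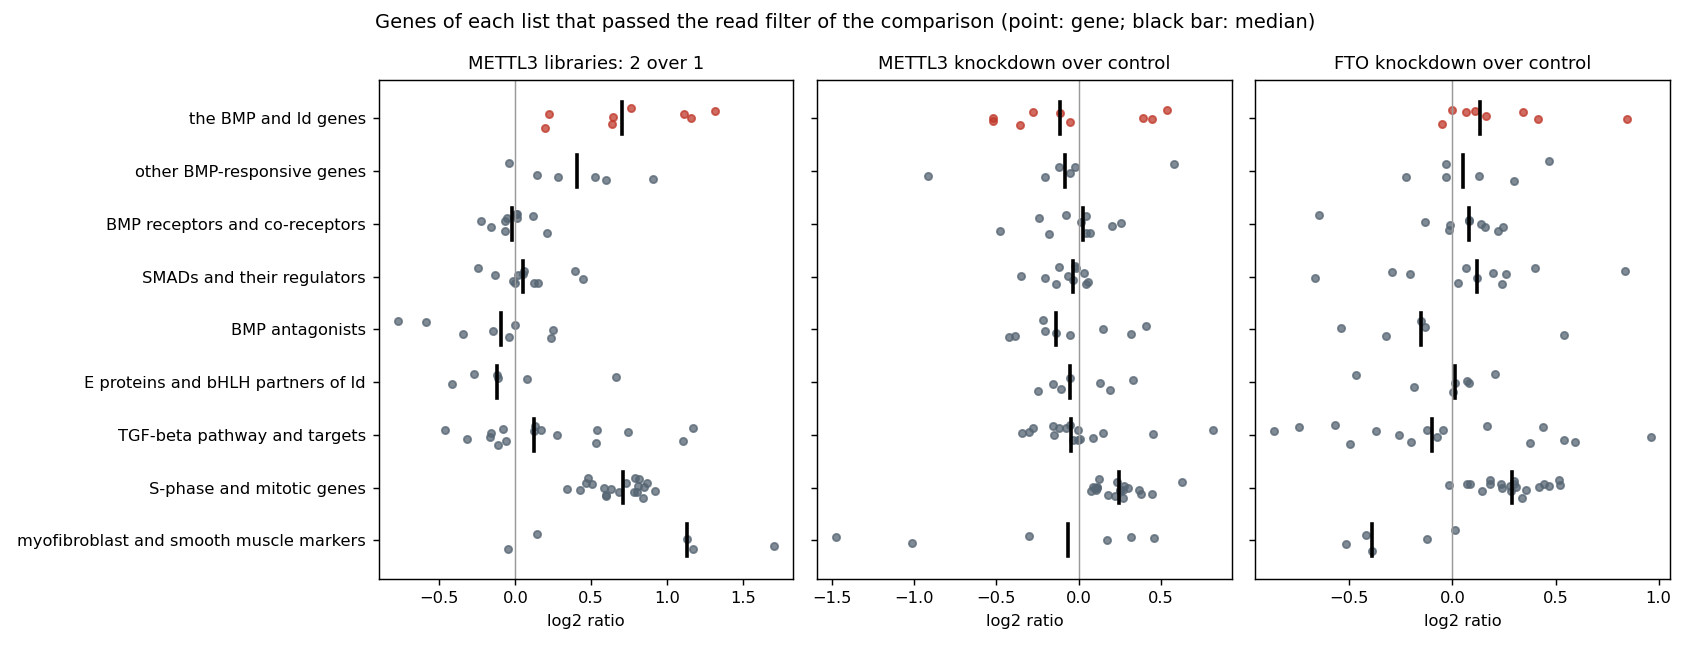
Log2 ratio of each gene (point) with its list's median (black bar), for METTL3 library 2 over 1 (left), METTL3 knockdown over control (middle) and FTO knockdown over control (right), with the 9 BMP and Id genes in red where reads sufficed. On the left the medians of the red genes (0.70), the S-phase and mitotic genes (0.71) and the myofibroblast markers (1.13) lie right of the receptors (-0.02) and SMADs (0.05), while in the middle the red median is -0.11.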

How the data were processed

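RNA was sequenced from 6 libraries of 3T3-L1 cells, using 2.5 µg of RNA, a TruSeq v2 kit and reads of 101 bp on a HiSeq2000, per the labels' protocols. Per the file headers, the authors deposited a raw read count and an RPKM value per Ensembl gene for each library. Gene lengths and read totals used for the deposited RPKM are not stated by the sources used here. The ratio of count to RPKM gives the read totals relative to METTL3 control library 1. Over the summed counts these were 1.19 and 1.20 in the FTO knockdown and FTO control libraries, against 0.996 to 1.00 in METTL3 libraries. Deposited RPKM is therefore lower in FTO than in METTL3 libraries for the same share of counts. The submitters' processing notes name TopHat2 2.0.9, bedtools and mm10 without roles. Symbols came from GENCODE M21 on GRCm38: 35449 entries had one, and 3 repeats were left out.

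METTL3 counts were tested with edgeR 4.0.16 in R 4.3.3 (TMM, filterByExpr, robust quasi-likelihood fit, two-sided, Benjamini-Hochberg, called at adjusted p under 0.05). SE is the absolute log2 fold change over the square root of F. Levels are TMM-scaled CPM. FTO and library-number ratios are log2((CPM + 1)/(CPM + 1)) for genes with at least 50 reads in a library, so they understate changes of low genes, while printed folds are ratios of CPM alone. A fold of 1.5 was the size called. Floors (3 reads, 0.0673 to 0.106 CPM) and 95% intervals cover counting error only. Alternatives were DESeq2 1.42.0, limma-voom (limma 3.58.1), other scalings, filters and pseudocounts, RPKM, a replicate block and leaving out each METTL3 library. The edgeR procedure was tested on simulated counts with a fixed spread and no library-number gap. That setting does not cover the number gap seen in the METTL3 libraries.

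The members and lists were chosen with earlier results of these data known. Named genes were the 9 members, list genes called or with the 2 widest ratios per list and comparison, and the 5 profiles nearest to Id1, with Mettl3 and Fto as checks. Bmpr1a, Smad1, Vwf, Tie1, Lpl, Fabp4 and Pdgfra were named after their values were seen. Some genes that this rule selects are not reported here.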

Additional observations from a re-analysis of the deposited data

Results flagged for a closer look

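Bmp4 was the only gene of the 9 whose library-number difference had opposite signs in the METTL3 pairs. Its counts were 16 and 21 reads in METTL3 knockdown libraries 2 and 1, against 16 and 11 reads in METTL3 control libraries 2 and 1. The log2 ratio of library 2 over library 1 in the knockdown pair minus that in the control pair was -0.29. With 1 library per number in each group the difference was not tested, and the counts are too low for the other comparisons by number.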

How the results depend on the processing

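In METTL3 knockdown, 0 of the 9 genes were called under every scaling, filter and tool tried and with any 1 library left out. The exception was the replicate block, under which 5 were called (Grem1, Id4, Id2, Smad7 and Smad6, edgeR adjusted p = 4.7e-12 to 0.00183) among 3706 genes (27.1% of all tested). Same-numbered libraries varied together: their deviations from the group means correlated with r = 0.587 over 13697 genes. The labels do not say what a number marks. Genes called over all were 2, and 111 without the low-count filter, 218 with DESeq2 and 2 to 70 with 1 library left out (70 without METTL3 knockdown library 1, 7 without METTL3 knockdown library 2). Without the block, the adjusted p of Grem1 ran from 0.0564 (DESeq2) to 0.892. With 1 library left out, log2 fold changes ran from -0.76 to 0.64 for Id1, -1.39 to 0.37 for Id2, -0.65 to 0.28 for Id3, -1.22 to 0.19 for Id4, -0.62 to 0.11 for Smad6, -0.021 to 0.74 for Smad7, -0.59 to -0.09 for Bambi, 0.18 to 0.75 for Bmp4 and 0.43 to 0.64 for Grem1. Signs turned for the Id genes and Smad6 without METTL3 control library 2 (0.64, 0.37, 0.23, 0.19 and 0.11 for Id1, Id2, Id3, Id4 and Smad6). They turned for Id1, Id2 and Id3 without METTL3 knockdown library 1 (0.41, 0.018 and 0.28), and for Smad7 without METTL3 knockdown library 2 (-0.021). Bambi, Bmp4 and Grem1 kept their signs. Every fit with 1 library left out sets 1 numbered library against 2, and the part of this in the turned signs was not tested. For the number gap, a pseudocount of 5 CPM left 3 of the 6 genes past 1.5-fold (Id1, Id2 and Id4) and 196 of 366 genes in all; RPKM left 5 of the 6 (without Smad7, log2 ratio 0.53) and 231 over all genes, and the knockdown pair alone gave 619 and the control pair alone 592. For FTO, 748 genes passed 1.5-fold, 373 with a pseudocount of 5 CPM and 440 with RPKM, and Smad7 passed in each. Depth limits Bmp4, with 1 to 21 reads a library.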

Other observations

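Levels of the set also differed between the experiments, which were read in different modes, so experiment and mode cannot be told apart. Per length, on the deposited RPKM, Grem1 stood at 263 RPKM in the FTO knockdown and 246 RPKM in the FTO control library, against 58.1 to 68.5 RPKM in METTL3 knockdown and 41.0 to 47.2 RPKM in METTL3 control libraries. It ranked highest of the 9 in both FTO libraries and in METTL3 knockdown library 1, and Id1 ranked highest in the other 3. Smad7 stood at 13.6 RPKM in the FTO knockdown and 7.32 RPKM in the FTO control library, against 2.73 to 4.58 RPKM in METTL3 knockdown and 2.19 to 3.46 RPKM in METTL3 control libraries. Smad6 showed no such step, at 15.2 RPKM in the FTO knockdown and 14.9 RPKM in the FTO control library, within the 11.2 to 21.9 RPKM of the METTL3 libraries. Bambi ranked 8 and Bmp4 ranked 9 by RPKM in every library.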
